A study of Mus musculus with 11 samples.

Results

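The 7 genes described here make up the core of the aryl hydrocarbon receptor response: the receptor Ahr, its partner Arnt, the repressor Ahrr, the cytochrome P450 genes Cyp1a1 and Cyp1b1, Tiparp and Nqo1. They were chosen by name, with earlier results of these data known, among them the difference of Cyp1a1 between gel and plastic. They are 7 of the 12588 genes of the bulk table. In the single-cell tables all 7 had a column in 4 libraries, and 6 had one in the library labelled JupHigh, whose table held no Cyp1a1 column.

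The aryl hydrocarbon receptor is a ligand-activated transcription factor that waits in the cytoplasm in a complex with HSP90 and co-chaperones. When it binds a ligand, such as a planar aromatic pollutant or a breakdown product of tryptophan, it enters the nucleus, pairs with ARNT and binds xenobiotic response elements with the core letters GCGTG. Cyp1a1, Cyp1b1, Ahrr, Tiparp and Nqo1 are textbook targets, and the products of Ahrr and Tiparp dampen the receptor in turn. The CYP1 enzymes oxidise aromatic compounds and also clear the receptor's own ligands. Nqo1, a quinone reductase, is in addition a classic target of NRF2, the regulator of the antioxidant response.

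All 11 samples are mouse embryonic stem (ES) cells. In bulk, 3 libraries came from cells embedded in agarose microgels and 3 from cells on tissue-culture plastic, all of genotype Rex1GFPd2 in 2i/LIF, a serum-free medium that adds MEK and GSK3 inhibitors to the cytokine LIF. Each bulk library was made with Smart-seq2, a full-length cDNA method, from about 1000 cells. The 5 single-cell libraries came from inDrop, which barcodes cells in droplets and counts transcripts by unique molecular identifiers (UMIs), with 1 library per condition. Wild-type cells of genotype E14 gave 3 of them: 1 from plastic with serum/LIF, 1 from plastic with 2i/LIF and 1 from gels with serum/LIF. The remaining 2, labelled PGHIGH and PGLOW and called here JupHigh and JupLow, were labelled as overexpressing plakoglobin, the product of Jup, from the constitutive CAG promoter, in serum/LIF on plastic. The labels name neither the parent line of those 2 nor whether they are clones. So gel was compared with plastic in a different medium, line and assay in bulk than in single cells.

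The bulk libraries held 637235 to 2583256 reads, with the plastic group containing both the shallowest and the deepest. The names of the columns read as plastic hold the marks of both groups, those read as gel hold the gel mark alone, and the direction of every bulk difference rests on that reading. Jup, whose rise in gels the study's description names, was at 90.9 to 103 in the columns read as gel and 9.39 to 30.4 in those read as plastic. The 8 ES cell markers summed to 2208 to 2304 in gel and 2216 to 2436 in plastic, but not each of them alike. In 5 (Pou5f1, Sox2, Esrrb, Klf4 and Utf1) every gel library lay above every plastic one, as for Pou5f1 at 141 ± 26.7 against 56.2 ± 10.1 (SD, n = 3 each), in 2 (Nanog and Zfp42) below, as for Nanog at 830.0 ± 31.8 against 1051 ± 77.3, and in 1 (Tdgf1) they overlapped. Over all 12588 genes of the bulk table every gel library lay above every plastic one in 20.3% and below in 19.3%. The part of the ES cell markers in the differences between gel and plastic was not tested. Of 10 fibroblast markers only Pdgfrb was in the bulk table, at 0 to 3.39 in gel and 1.25 to 4.55 in plastic, and none of 8 endoderm markers was. In single cells Jup was at 47.8 CPM (UMIs scaled to a common library total; 95% Poisson interval 41.5 to 54.8) in the library labelled JupHigh, 37.9 (31.1 to 45.7) in that labelled JupLow, 36.7 (28.8 to 46.0) in the wild-type serum/LIF library on plastic and 46.7 (42.2 to 51.6) in the wild-type 2i/LIF library. The intervals of both Jup libraries overlapped each other and that of wild type in serum/LIF. JupHigh stood highest, but overlap of separate intervals is no test of a difference, so these counts do not settle either Jup label. Whether the transgene carries the stretch that inDrop reads is not given in the sources used here. No cell barcode was shared between libraries.

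The stretch before the transcription start is shown for the genes that lay lower in gel, since Cyp1a1, Ahrr, Cyp1b1, Tiparp and Nqo1 are all called receptor targets yet differ in these letters. The sequences are from RefSeq for GRCm38.p6, read 5′ to 3′ on the gene's own strand and each ends before the first base in its window that a GENCODE exon of the gene covers. The Cyp1a1 window lies inside the gene's span in GENCODE, which has a further start upstream of it. Capitals mark GCGTG, or CACGC where the motif lies on the other strand. RefSeq promoters were matched for 6 of the 7 genes.
Cyp1a1: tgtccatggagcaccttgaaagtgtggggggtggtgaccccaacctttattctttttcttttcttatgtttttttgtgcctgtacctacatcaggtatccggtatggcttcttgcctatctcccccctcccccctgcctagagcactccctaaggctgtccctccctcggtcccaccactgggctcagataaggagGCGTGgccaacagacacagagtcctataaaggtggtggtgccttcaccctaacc
Ahrr: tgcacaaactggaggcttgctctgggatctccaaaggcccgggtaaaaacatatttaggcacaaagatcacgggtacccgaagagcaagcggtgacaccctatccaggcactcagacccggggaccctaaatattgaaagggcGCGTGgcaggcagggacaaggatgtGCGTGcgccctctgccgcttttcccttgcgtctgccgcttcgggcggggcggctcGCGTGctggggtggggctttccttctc
Cyp1b1: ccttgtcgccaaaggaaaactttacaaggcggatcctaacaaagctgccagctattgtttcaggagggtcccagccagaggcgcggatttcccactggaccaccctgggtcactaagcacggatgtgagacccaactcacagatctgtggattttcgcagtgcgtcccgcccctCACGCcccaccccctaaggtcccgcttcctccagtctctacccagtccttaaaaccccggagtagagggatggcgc
Tiparp: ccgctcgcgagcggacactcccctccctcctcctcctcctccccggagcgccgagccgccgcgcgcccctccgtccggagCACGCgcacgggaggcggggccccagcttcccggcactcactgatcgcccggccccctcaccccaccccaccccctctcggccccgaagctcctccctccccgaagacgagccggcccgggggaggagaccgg
Nqo1: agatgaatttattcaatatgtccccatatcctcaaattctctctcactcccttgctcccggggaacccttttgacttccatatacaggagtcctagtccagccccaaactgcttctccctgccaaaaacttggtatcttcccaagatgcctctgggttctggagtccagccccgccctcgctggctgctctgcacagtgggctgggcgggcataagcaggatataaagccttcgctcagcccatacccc

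These windows lie at chr9:57697363-57697612 on the plus strand, chr13:74292332-74292581 on the minus strand, chr17:79715062-79715311 on the minus strand, chr3:65528197-65528409 on the plus strand and chr8:107403207-107403455 on the minus strand. Ahrr held 3 GCGTG motifs in its full promoter window of 300 bases (250 before to 50 after the start), at 107, 82 and 27 bases before the start, and 1 of them was extended to TNGCGTG, which contains GCGTG. Cyp1a1 held 1 at 54 bases, Cyp1b1 1 at 76 bases and Tiparp 1 at 170 bases before the start, while Arnt held 1 at 29 bases. The Nqo1 window held none. Searched on both strands, GCGTG stood in 32.4% of 32851 mouse promoters of that length and TNGCGTG in 5.07%. TGACNNNGC, the core of the element read by NRF2, stood in 12.4% of them, 2 times in the Arnt window and in none of the windows of the other 5 genes. These matches describe letters in a short window and say nothing of binding.

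Cyp1a1, the hallmark target of the receptor, was abundant in plastic and nearly undetected in gel. This gene lies on chromosome 9 from 57687928 to 57703824, plus strand, in GENCODE M21 for GRCm38. Its normalised read counts were 202, 241 and 220.1 in plastic and 3.39, 0 and 4.12 in gel. Behind them stood 487, 616 and 145 reads in plastic and 3, 0 and 3 in gel. The groups lay far apart, and the shallowest plastic library, with fewer reads than any gel library, still held 145 Cyp1a1 reads. The means were 221 ± 19.3 (SD, n = 3) in plastic and 2.50 ± 2.20 (SD, n = 3) in gel, an 88.4-fold difference. Over the pooled reads of each group the ratio was 88.3, with a counting interval of 40.5 to 241 that leaves out the spread between libraries. On the log2(value + 0.5) scale gel minus plastic was -6.73 (SE 0.54), the lowest of the 7878 genes that passed the read filter, which Cyp1a1 met through plastic alone. Without the second gel library, which had no Cyp1a1 read, it was -5.71. Because this contrast chose the gene, the value is a description and carries no test. In bulk libraries, fewer cells that express a gene and less RNA per cell cannot be told apart.

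**Figure D1:**
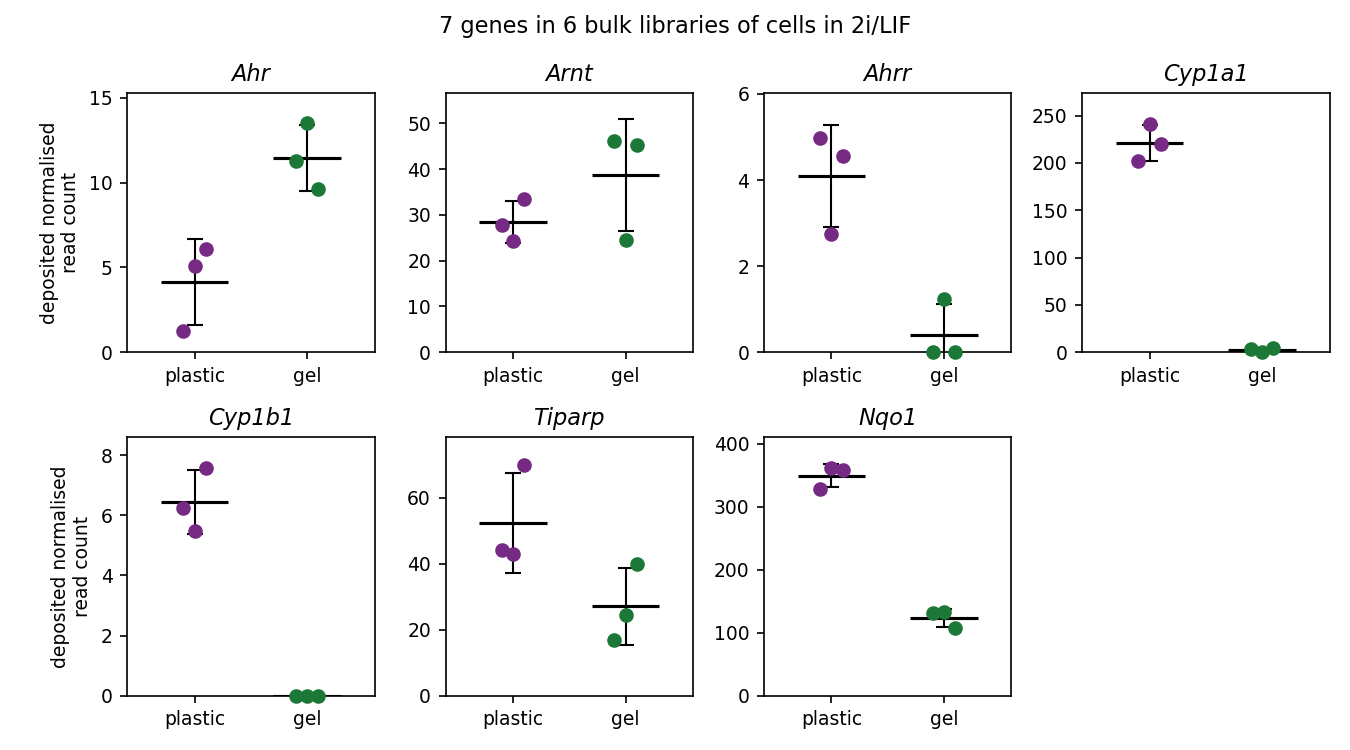
Deposited normalised read counts (vertical axis, own scale per gene, from 0) of the 7 genes in the 3 plastic and 3 gel libraries. Points are libraries, horizontal lines means and bars 1 SD. Cyp1a1 lay at 202 to 241 in plastic and at 0 to 4.12 in gel, Ahr lay higher in every gel library, and Arnt overlapped.

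Cyp1b1, the related P450 gene on chromosome 17 (79701537 to 79715061, minus strand), was low in plastic and listed at 0 in every gel library. Its normalised read counts were 6.23, 5.48 and 7.59 in plastic, from 15, 14 and 5 reads. Over the pooled reads, 34 in plastic and 0 in gel, the limit of the counting interval lay at 3.71-fold lower in gel. That limit covers counting error only and leaves out the spread between libraries. It was below the read filter.

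Nqo1, on chromosome 8 (107388225 to 107403206, minus strand), had the highest counts of the 7 genes. It stood at 329, 361 and 358 in plastic and 131, 133 and 107 in gel, so that the groups did not overlap. The means were 349 ± 17.8 (SD, n = 3) and 124 ± 14.2 (SD, n = 3), a 2.83-fold difference, and the log2 difference was -1.50 (SE 0.12). Of the tested genes, 0.749% had a lower one. Because the gene was chosen with this contrast known, that place is a description and carries no test.

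Tiparp, which encodes a mono-ADP-ribosyltransferase that dampens the receptor, lies on chromosome 3 (65528410 to 65555518, plus strand). It stood at 44.1, 43.0 and 69.8 in plastic and 16.9, 24.6 and 39.8 in gel. The highest gel library came close to the lowest plastic library without reaching it. The means were 52.3 ± 15.2 and 27.1 ± 11.7 (SD, n = 3 each), a 1.93-fold difference, with a log2 difference of -0.98 (SE 0.27).

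Ahrr, which encodes a repressor that competes with the receptor for ARNT, lies on chromosome 13 (74211118 to 74292331, minus strand). It stood at 4.99, 2.74 and 4.55 in plastic, from 12, 7 and 3 reads, and at 0, 1.23 and 0 in gel, from 1 read in all. Over the pooled reads, plastic was 9.34-fold higher, with a counting interval of 1.51 to 386 that leaves out the spread between libraries. The log2 difference was -2.57, and -3.16 without the second gel library. It was below the read filter.

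The receptor gene itself went the other way. Ahr, on chromosome 12 (35497974 to 35535038, minus strand), stood at 11.3, 13.5 and 9.62 in gel and 1.25, 5.09 and 6.07 in plastic. Its lowest gel value exceeded its highest plastic value, on 10, 11 and 7 reads against 3, 13 and 4. The means were 11.5 ± 1.95 and 4.14 ± 2.55 (SD, n = 3 each), a 2.77-fold difference, with a log2 difference of 1.57 (SE 0.51). Without the first plastic library the log2 difference was 0.97. Ahr was below the read filter.

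Arnt, the partner that the receptor shares with the hypoxia factor HIF1A, lies on chromosome 3 (95434388 to 95497240, plus strand). It stood at 46.3, 24.6 and 45.3 in gel and 27.8, 24.3 and 33.4 in plastic. The groups overlapped, with the second gel library among the plastic values, and the log2 difference was 0.39 (SE 0.25). It was 0.69 without that library, 0.24 without the first gel library and 0.25 without the third.

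Of the 7 genes, 4 passed the read filter: Arnt, Cyp1a1, Tiparp and Nqo1. In 5 genes every gel library lay below every plastic library (Ahrr, Cyp1a1, Cyp1b1, Tiparp and Nqo1), in 1 gel lay above throughout (Ahr), and in 1 the groups overlapped (Arnt). Over all 12588 listed genes the groups lay apart with gel below in 19.3% and with gel above in 20.3%, and over the 7878 tested genes in 25.0% and 24.4%. The genes were picked with this contrast known, so nothing is read from the counts.

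**Figure D2:**
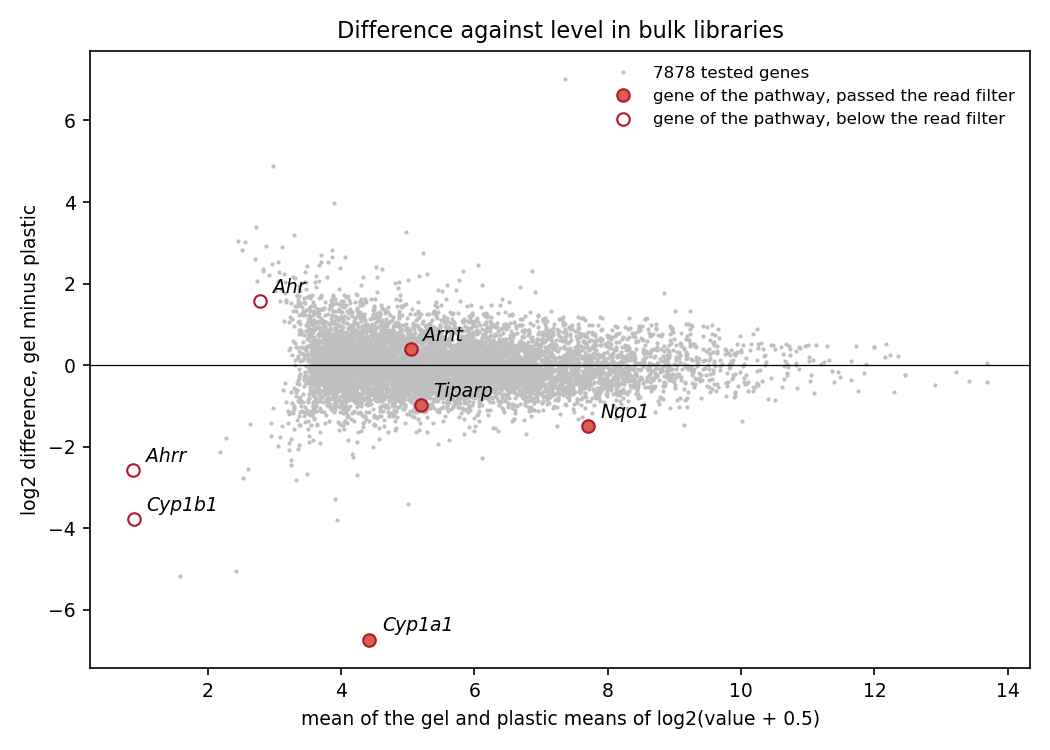
Log2 difference of gel minus plastic (vertical axis) against the mean level on the log2(value + 0.5) scale (horizontal axis). Grey points are the 7878 tested genes, filled circles the 4 genes of the response that passed the read filter and open circles the 3 that did not. Cyp1a1 sits at -6.73, below every other tested gene, with Nqo1 at -1.50 and Tiparp at -0.98.

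Levels between genes were compared per kilobase of annotated exon. In plastic the normalised read count per kilobase ran from Nqo1 at 225 through Cyp1a1 at 79.4, Tiparp at 12.0, Arnt at 3.56, Cyp1b1 at 1.10 and Ahr at 0.671 to Ahrr at 0.434. In gel Nqo1 stayed first at 79.6 per kilobase, followed by Tiparp at 6.22, Arnt at 4.84, Ahr at 1.86, Cyp1a1 at 0.898 and Ahrr at 0.0434, with Cyp1b1 at 0. Cyp1a1 thus stood second of the 7 in plastic and below Ahr in gel, there on 6 reads in all against 28. In the third gel library these genes lay close, at 1.48 for Cyp1a1 and 1.56 for Ahr per kilobase. Within a library, per kilobase, Cyp1a1 stood at 34.3, 37.2 and 34.2 for each 100 of Nqo1 in plastic, with counting intervals that overlapped. In gel the same ratio was 1.44, 0 and 2.14.

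The genes whose log2 values ran most like those of Cyp1a1 over the 6 libraries were Zp3 (Pearson r 0.9974), Ddx59 (0.9969), Slmo2 (0.9966), Cd55 (0.995) and Gm11701 (0.9949). The differences of these 5 genes were far smaller: the log2 differences were -0.47 for Zp3, -1.15 for Ddx59, -0.37 for Slmo2, -1.16 for Cd55 and -1.39 for Gm11701. Of 7877 candidate genes, 591 reached an r of 0.9, so many genes share this pattern of 3 against 3 libraries. Which of them ranked first also rests on the 3, 0 and 3 Cyp1a1 reads in gel. All 5 named genes were lowest in the second gel library, which held the 0. The contrast that chose Cyp1a1 also enters every r, so the names are a description only.

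The other genes of the pathway gave no one-sided picture. limma with Benjamini-Hochberg adjustment called 2906 of 7878 tested genes (36.9%), 18.3% higher and 18.6% lower in gel. Over 8 lists of receptor partners, further targets, P450 support and related responses, 54 of 101 genes were tested. Of these, 6 met the read filter through 1 group alone, among them Src, Ep300, Slc7a5 and Pdk1, which met it through gel, where they were higher. Such genes enter the test more readily where they differ, so they are left out of the counts here and their values carry no p. Of the other 48, 7 rose and 10 fell in gel, 35.4%, beside 35.9% of the 6693 genes that met the filter in both groups (16.7% higher and 19.1% lower). Their median log2 fold change was -0.07 beside -0.03. Over all 54 tested list genes 21 were called, and 13 without the first plastic library.

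Of 13 genes of the receptor complex and its coregulators, 7 met the filter in both groups, 1 of them passed the test, 14.3% beside 35.9% of all such genes, and the median log2 fold change was 0.04. Src, the kinase held in the unliganded complex, stood at 4.68 ± 2.52 in plastic and 16.1 ± 1.59 in gel (SD, n = 3 each), from 8, 8 and 5 reads against 14, 12 and 13. Ep300, a histone acetyltransferase coactivator, stood at 7.85 ± 2.42 and 26.4 ± 2.90, from 16, 16 and 7 reads against 21, 24 and 19. Ptges3, the p23 co-chaperone, fell from 720 ± 50.6 in plastic to 567 ± 43.4 in gel (log2 fold change -0.34, adjusted p = 0.0101 by limma). The chaperones Hsp90aa1 and Hsp90ab1 did not pass the test.

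Of 13 further genes reported as receptor targets, 5 were in the table and 2 met the filter in both groups, and both fell, where 19.1% of all such genes did. Slc7a5, an amino acid transporter, stood at 3.32, 3.52 and 12.1 in plastic, from 8, 9 and 8 reads, and at 38.4, 33.2 and 37.1 in gel, from 34, 27 and 27. Ugdh, which makes the sugar donor for glucuronidation, fell from 152 ± 14.3 in plastic to 61.3 ± 8.56 in gel (SD, n = 3 each; log2 fold change -1.31, limma adjusted p = 4.74e-06). Nfe2l2, the gene of NRF2, fell from 208 ± 11.9 to 130.0 ± 3.20 (log2 fold change -0.67, limma adjusted p = 0.000276). Of 7 genes of tryptophan breakdown, a source of receptor ligands, 1 was in the table and none passed the read filter.

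Among genes that serve P450 enzymes through electron transfer and heme, 8 met the filter in both groups and 2 of them, 25%, fell, beside 19.1% of all such genes, with a median log2 fold change of -0.33. Por, the reductase that feeds electrons to microsomal P450 enzymes, fell from 41.7 ± 5.72 to 27.1 ± 5.33 (SD, n = 3 each; limma adjusted p = 0.0308). Fech, the last enzyme of heme synthesis, fell from 56.4 ± 2.62 to 36.7 ± 11.8 (limma adjusted p = 0.0239).

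The NRF2 regulators and targets, which share Nqo1 with the receptor, did not move as a block. Of 3 tested regulators, all of which met the filter in both groups, 2 fell, where 19.1% of all such genes did. They were Nfe2l2, given above and counted among the further targets as well, and Sqstm1, an adaptor that binds KEAP1. Sqstm1 fell from 342 ± 21.8 to 277 ± 17.7 (SD, n = 3 each, limma adjusted p = 0.0332). Of 18 targets that met the filter in both groups, 4 rose and 2 fell, 33.3% beside 35.9%, with a median log2 fold change of -0.04. Gclc, the catalytic subunit of glutathione synthesis, rose by 0.82 on the log2 scale (limma adjusted p = 0.0101), and thioredoxin (Txn1) by 0.78 (adjusted p = 4.88e-05) and the exporter Abcc4 by 0.70 (adjusted p = 0.0126). Glutathione reductase (Gsr) fell by 0.63 (limma adjusted p = 0.000139) and ferritin light chain (Ftl1) by 0.25 (adjusted p = 0.0342). Hmox1, Gclm and Gstm1 had log2 fold changes of -0.09, -0.02 and -0.01 and did not pass the test.

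ARNT also serves the hypoxia response, so that list was read beside it. Of 7 genes of the hypoxia arm that met the filter in both groups, 3 rose and 1 fell, 57.1% beside 35.9% of all such genes, with a median log2 fold change of 0.11. Lactate dehydrogenase Ldha rose by 0.71 on the log2 scale (limma adjusted p = 2.59e-05) and the glycolytic gene Pgk1 by 0.64 (adjusted p = 0.000319). Pdk1, whose product inhibits pyruvate dehydrogenase, had 30, 29 and 6 reads in plastic and 18, 20 and 15 in gel. Its log2 fold change was 0.97. The glucose transporter Slc2a1 fell by 0.31 (limma adjusted p = 0.0410). Of 4 tested PARP genes, relatives of Tiparp, 1 fell, 25% beside 19.1% of all genes that met the filter in both groups. It was Parp2, from 109 ± 4.11 to 82.8 ± 15.2 (SD, n = 3 each, limma adjusted p = 0.0380).

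**Figure D3:**
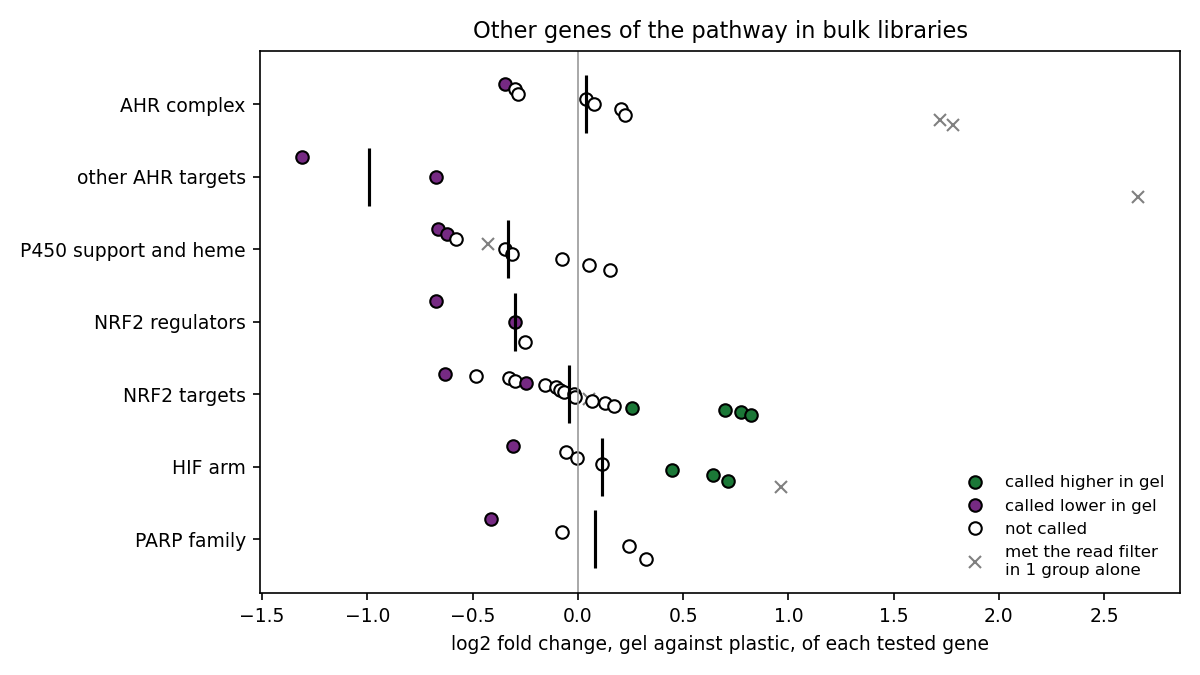
Log2 fold change of gel against plastic (horizontal axis) of each tested gene in 7 lists of the pathway and related responses (vertical axis). Green points rose, purple points fell and open points did not pass the test, and grey crosses met the read filter in 1 group alone and carry no call. Black bars are list medians without the crosses, and Ugdh lies farthest left at -1.31.

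In single cells each condition had 1 library, so no difference has a replicate check and no test was made, and all intervals cover counting error only. Cells were barcodes with at least 1000 UMIs, from 112 in the gel library to 2889 in the 2i/LIF library, with medians of 1731.5 to 2465 UMIs. Levels are UMIs summed over all cells of a library, in CPM. In the wild-type serum/LIF table for plastic, Sox2 had no column while its overlapping neighbour Sox2ot held 505 UMIs, against 1 to 42 in the other libraries, so these genes were not counted alike in all tables. Among the 7 genes, Ahr overlaps Gm48236 and Tiparp overlaps 4931440P22Rik on the other strand, and these held 0 to 2 and 0 to 14 UMIs.

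Of the 7 genes, Nqo1 had the largest difference in CPM between media, while by ratio that of Cyp1a1 was larger on a single UMI in serum/LIF. It stood at 102 CPM (95% Poisson interval 95.5 to 109) in wild type in 2i/LIF, from 847 UMIs. In the other libraries it stood at 27.3 CPM (20.5 to 35.5) in the wild-type serum/LIF library on plastic, 19.1 (14.4 to 24.9) in JupLow, 20.4 (16.4 to 25.2) in JupHigh and 8.47 (1.03 to 30.6) in gel. The 2i/LIF library stood above all the others, and intervals of those 4 overlapped. Against wild type in serum/LIF the log2 ratio of levels in 2i/LIF was 1.91 (interval 1.51 to 2.33), a 3.75-fold difference. After each cell was thinned to 1000 UMIs, 8.48% of cells held an Nqo1 UMI in 2i/LIF (exact binomial interval 7.49 to 9.56) and 2.21% in serum/LIF (1.27 to 3.56). Without thinning the shares were 22.7% and 6.76%. In 2i/LIF, 504 cells held 1 Nqo1 UMI, 123 held 2 and 29 held 3 or more, up to 6 in a cell.

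Between these 2 libraries the markers of other cell types also differed. The endoderm markers summed to 223 CPM in serum/LIF (6 of 8 with a column, all 6 with UMIs) and 3.38 CPM in 2i/LIF (6 of 8). The fibroblast markers summed to 56.5 CPM in serum/LIF (6 of 9 with UMIs, with Dcn, Lum and Postn at 0) and 3.98 CPM in 2i/LIF (6 of 6). The part of these cells in the Nqo1 difference was not tested.

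Cyp1a1 was sparse in every single-cell library. In 2i/LIF it gave 29 UMIs in 27 of 2889 cells, a level of 3.50 CPM (2.34 to 5.03), with at most 2 UMIs in a cell. The wild-type serum/LIF library on plastic gave 1 UMI, 0.496 CPM (0.0125 to 2.76), and the library labelled JupLow 3 UMIs, all in 1 cell. The gel library had 0 UMIs in 112 cells, with an exact Poisson interval of 0 to 15.6 CPM that held the level in 2i/LIF, and 3 UMIs of its total would be 12.7 CPM. The log2 ratio of 2i/LIF to serum/LIF was 2.82, with an interval of 0.23 to 8.17 that rests on the single UMI.

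Cyp1a1 was set beside Nqo1 within each library, because both assays read both genes in 2i/LIF on plastic. The E14 cells held 3.42 Cyp1a1 UMIs for each 100 Nqo1 UMIs (2.28 to 4.95), where the bulk Rex1GFPd2 libraries on plastic held 34.2 to 37.2 per kilobase. In the gel bulk libraries the value was 0 to 2.14. Line, assay and counting differ between the bulk and single-cell values, so they stand side by side without a test.

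**Figure D4:**
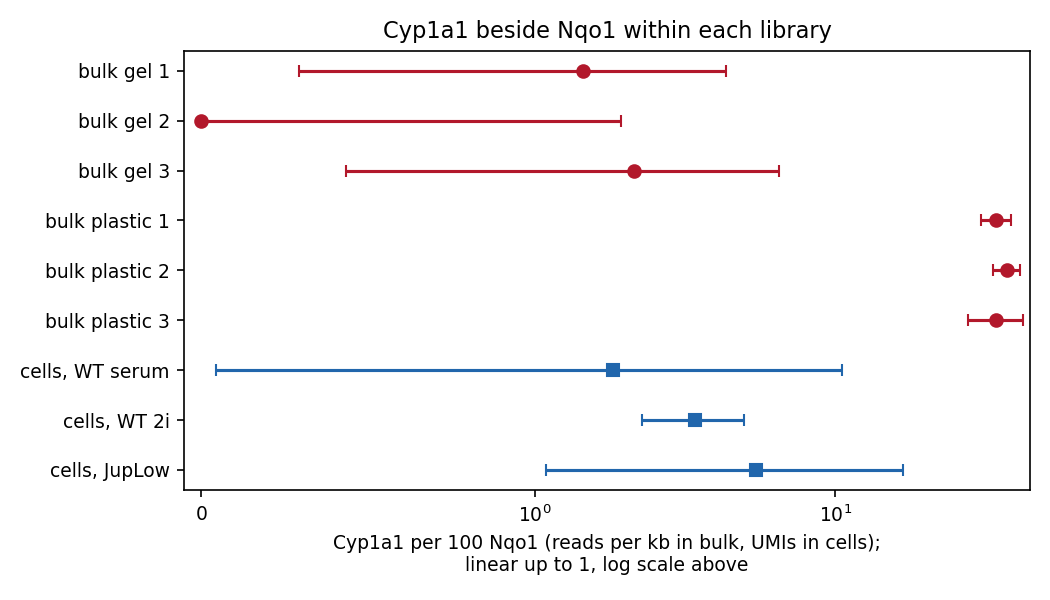
Cyp1a1 for each 100 of Nqo1 (horizontal axis, linear up to 1 and logarithmic above) in each library with at least 10 Nqo1 reads or UMIs (vertical axis), with 95% counting intervals. Circles are bulk libraries, per kilobase, and squares single-cell libraries, in UMIs. The 3 bulk plastic libraries lie at 34.2 to 37.2, and every other library shown lies at 5.45 or below.

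Tiparp was the only one of the 7 genes at a lower level in 2i/LIF than in serum/LIF with an interval that left out 0. It stood at 33.8 CPM (30.0 to 38.0) in 2i/LIF and 54.5 (44.8 to 65.7) in wild type in serum/LIF, a log2 ratio of -0.69 (-1.01 to -0.36). With barcodes from 500 UMIs Cyp1b1 joined it, at -1.51. The gel library at 59.3 CPM (32.4 to 99.5), JupLow at 56.3 (47.9 to 65.6) and JupHigh at 56.8 (49.9 to 64.4) lay with serum/LIF. After thinning, the shares of cells with a UMI were 3.12% (2.51 to 3.82) in 2i/LIF and 4.55% (3.15 to 6.33) in serum/LIF, and these intervals overlapped.

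Ahr and Arnt were detected in all 5 libraries. Ahr stood at 10.98 CPM (8.84 to 13.5) in 2i/LIF and 10.4 (6.44 to 15.9) in wild type in serum/LIF, with a log2 ratio of 0.08 (-0.62 to 0.84). JupLow cells held it at 14.6 CPM (10.5 to 19.7) and JupHigh cells at 5.80 (3.75 to 8.56), a log2 ratio of JupHigh to JupLow of -1.33 (-2.11 to -0.58). With barcodes from 500 UMIs the levels were 10.3 and 6.26 CPM and the log2 ratio -0.72, with an interval that still left out 0. In barcodes with under 500 UMIs the order was reversed, on 13 UMIs in JupLow and 6 in JupHigh. The levels there were 7.06 CPM (3.76 to 12.1) and 10.4 (3.80 to 22.5), with overlapping intervals. After thinning the shares of cells with an Ahr UMI were 1.42% (0.827 to 2.26) and 0.743% (0.425 to 1.20), with overlapping intervals. The marker sums also differed between JupLow and JupHigh. They were 1838 and 3190 CPM for ES cells, 31.6 and 15.8 for endoderm and 32.3 and 7.89 for fibroblasts. Their part in the Ahr difference was not tested. Arnt ran from 32.3 CPM (26.1 to 39.6) for JupLow to 43.8 (39.4 to 48.6) in 2i/LIF.

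Cyp1b1 and Ahrr were near the limit of detection. Cyp1b1 gave 14 UMIs in 10 cells of the library labelled JupLow, 4 of them in 1 cell, and 1 UMI in the library labelled JupHigh. The levels were 4.86 CPM (2.66 to 8.16) and 0.232 (0.00587 to 1.29), a log2 ratio of JupHigh to JupLow of -4.39 (-9.79 to -1.67), and of -0.54 with 10 CPM added to each. Wild type in serum/LIF on plastic held 5 Cyp1b1 UMIs, 2.48 CPM (0.805 to 5.78), 2i/LIF held 8 and gel 0. Against that serum/LIF library on plastic the log2 ratio was 0.97 (-0.58 to 2.80) for JupLow. For JupHigh it was -3.42 (-8.98 to -0.26), on 1 UMI against 5. In JupLow barcodes with under 500 UMIs Cyp1b1 stood at 3.26 CPM (1.20 to 7.10), an interval that overlapped the one in cells. The markers of fibroblasts, which can express Cyp1b1, summed to 32.3 CPM for JupLow (8 of 9 with UMIs, Dcn at 0) and 7.89 CPM for JupHigh (6 of 6). They summed to 56.5 CPM for wild type in serum/LIF on plastic. Their part in the Cyp1b1 difference was not tested. Ahrr gave 0 to 6 UMIs per library.

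**Figure D5:**
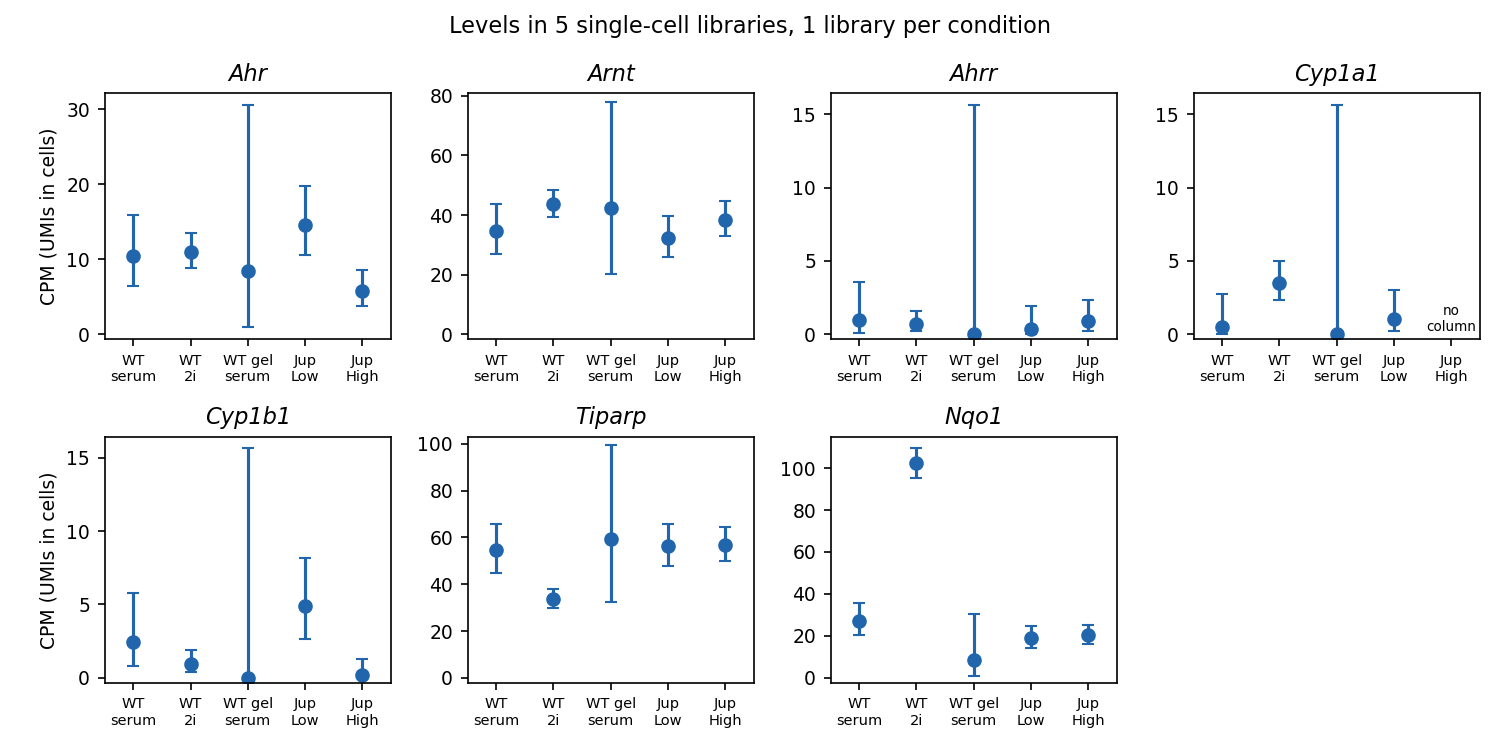
CPM, UMIs in cells scaled to a common total (vertical axis, own scale per gene, from 0) of the 7 genes in the 5 single-cell libraries, 1 per condition, with exact 95% Poisson intervals. WT is wild type, serum and 2i are serum/LIF and 2i/LIF. Nqo1 stands at 102 in 2i/LIF and at 27.3 or less elsewhere, and Tiparp stands lowest in 2i/LIF at 33.8.

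Barcodes with under 500 UMIs give the level outside called cells. In wild type in serum/LIF, Nqo1 stood at 23.5 CPM (17.5 to 30.9) there, Tiparp at 47.5 (38.7 to 57.6), Arnt at 30.0 (23.1 to 38.2) and Ahr at 8.29 (4.92 to 13.1). Over these 4 genes and the 4 serum/LIF libraries, the intervals in such barcodes and in cells overlapped in 16 of 16 pairs. Overlap of separate intervals is no test of a difference, so equal levels cannot be read from it. Ahr in JupLow stood at 7.06 CPM in such barcodes and 14.6 in cells, and Tiparp in JupHigh at 34.5 and 56.8. For the gel library such barcodes held only 3 to 8 UMIs of each gene. In 2i/LIF only 1 barcode had under 500 UMIs, so no such level could be set beside its cells. Whether these barcodes hold free RNA or small cells was not tested, and the low shares in the serum/LIF libraries are not read as expression of a few cells.

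Of the 7 genes, Arnt, Tiparp and Nqo1 reached 20 CPM in a library, the level at which 2-fold differences were counted. Against wild type in serum/LIF, Nqo1 was past 2-fold higher in 2i/LIF, where 9.71% of 7470 genes were, and none of the 3 was past 2-fold lower, where 15.0% were. In gel Nqo1 was past 2-fold lower on 2 UMIs against 55, with a log2 ratio of -1.69 and an interval of -4.77 to 0.23 that spanned 0, where 13.8% of genes were past 2-fold lower. None of the 3 was past 2-fold higher there, where 7.21% were. In the 3 comparisons of the Jup libraries none of the 3 genes was past 2-fold in either direction. For JupLow against wild type 4.17% of genes were past 2-fold higher and 7.02% lower, for JupHigh against wild type 6.14% and 14.5%, and for JupHigh against JupLow 2.63% and 8.40%. These comparisons against wild type share their control library. TMM scaling would move every log2 ratio up by 0.17 for 2i/LIF, 0.23 for JupHigh and 0.12 for JupLow against wild type in serum/LIF, and by 0.11 for JupHigh against JupLow.

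Among the other genes of the pathway in single cells, 9 genes of the hypoxia arm reached 20 CPM in the library where they stood higher. Of these, 6 were past 2-fold lower in 2i/LIF, where 15.0% of all genes were, and 0 higher, where 9.71% were. Their median log2 ratio was -1.35 beside -0.03 over all 7470 genes, which met the same rule. Epas1 (3.86 against 34.7 CPM), Egln1 (7.97 against 20.3 CPM) and P4ha1 reached 20 CPM in serum/LIF alone, where they were higher. The count and the median are therefore a description only. The named genes were P4ha1, a collagen prolyl hydroxylase, at 12.2 against 66.9 CPM, Slc2a1 at 65.5 against 247 CPM, Ldha at 176 against 572 CPM and Hif1a at 39.7 against 88.2 CPM. P4ha1 stood at 17.9 to 21.5 CPM in the other 3 libraries in serum/LIF, so its high level was that of the wild-type plastic library alone. Hk2, a hexokinase gene of the same list named after its values were seen, stood higher in 2i/LIF at 224 against 161 CPM, a log2 ratio of 0.48 (0.31 to 0.66). The endoderm and fibroblast markers, at 223 and 56.5 CPM in serum/LIF and 3.38 and 3.98 CPM in 2i/LIF, differed between the same 2 libraries, and their part in these list differences was not tested. Of 18 NRF2 targets, 2 were past 2-fold higher and 1 lower, beside the same 9.71% and 15.0%, with a median of 0.06. Gstm1, a glutathione transferase, stood at 204 CPM in 2i/LIF against 38.2 in serum/LIF, a log2 ratio of 2.42 (2.09 to 2.77), and Gsr at 289 against 102 CPM. In the other 3 libraries in serum/LIF Gstm1 stood at 79.2 to 96.0 and Gsr at 141 to 172 CPM, between those levels. Slc7a5 stood at 77.5 against 40.6 CPM. Mafg, a small MAF partner of NRF2, stood at 69.0 CPM in 2i/LIF and was listed at 0 UMIs in the wild-type plastic library in serum/LIF. It stood at 57.3 to 67.7 CPM in the other 3 libraries in serum/LIF, gel included, so the wild-type serum/LIF library on plastic stood apart from all 4 others. No fold difference is read from that 0. That library's table also had no Sox2 column, and the part of its gene list in these differences was not tested.

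Between the Jup libraries the named list genes had log2 ratios from -1.24 to 0.64. Slc2a1 stood at 132 CPM in JupHigh and 312 CPM in JupLow, a log2 ratio of -1.24 (-1.40 to -1.09). The NRF2 targets Hmox1, heme oxygenase, at 93.5 against 168 CPM, Gclc at 53.1 against 93.8 CPM and Gclm at 139 against 224 CPM also stood lower in JupHigh. Pdk1 at 154 against 99.0 CPM, Gsta4, another glutathione transferase, at 243 against 167 CPM, Parp1, the founding PARP enzyme, at 370.0 against 286 CPM and Gstm1 at 96.0 against 79.2 CPM stood higher. None of these named genes except Slc2a1 was past 2-fold, and the median of all 6950 genes was -0.13. The named genes had 50 CPM or more in the higher library. From 20 CPM, Maff (5.57 against 36.5 CPM), Nrip1 (6.03 against 24.0) and Bach1 (12.3 against 28.5) were also past 2-fold lower in JupHigh. No list gene was past 2-fold higher, beside 8.40% of all genes lower and 2.63% higher. Those list genes reached 20 CPM in JupLow alone, so this is a description only. The marker sums differed between the same libraries, at 3190 CPM in JupHigh and 1838 in JupLow for the 8 ES cell markers, 15.8 and 31.6 for those of endoderm and 7.89 and 32.3 for those of fibroblasts. Their part in these differences was not tested.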

How the data were processed

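Bulk values are a normalised signal that the authors deposited: gene counts divided by 1 factor per library, as judged from the values, of which 100% were whole multiples of the library's smallest value within 0.01 reads. Single-cell values are whole UMI counts that the authors deposited per gene and barcode, without normalization. Per the submitters' processing notes, FastQC, STAR, featureCounts, DESeq2 and Scanpy were used, with the builds mm10 and GRCm38. Their roles and versions, the annotation and the use of strand are not given in the sources used here.

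The 7 genes, the gene lists and the rules were chosen with earlier results of these data known. The bulk libraries held 866721, 808903 and 707718 reads (gel) and 2390575, 2583256 and 637235 reads (plastic). limma 3.58.1 (R 4.3.3) compared the groups over all 7878 genes that passed edgeR's expression filter on recovered reads, on log2(value + 0.5) with a trend of variance on level, a scale that understates changes of low genes. Calls are at a Benjamini-Hochberg adjusted p of 0.05. edgeR 4.0.16 and DESeq2 1.42.0 on recovered reads were alternatives. Fits were tested on simulated data. The chi-square per degree of freedom between replicates was 1.58 to 2.2, above sampling noise for every pair. Nothing in the labels says that replicates were separate cultures, so p-values measure the spread between these samples, which may be technical. For plastic replicate 2 the title and the description give unlike numbers, and the one in the title was used.

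Named genes are the 7 and, per list, up to 3 called genes in each direction with the largest change and a mean of at least 5. In single cells they are, in 2i/LIF against serum/LIF in wild type and in JupHigh against JupLow, the up to 4 list genes in each direction with the largest ratio at 50 CPM or more. Counting lists only over genes that met the read filter in both groups was chosen after seeing the data. The genes most like Cyp1a1 are the 5 with the highest Pearson r. Barcodes with 8 or more G at each end, columns with a blank name (0.00509% to 0.499% of the UMIs) and 1 row cut short in the gel table were left out. No doublet caller was used. Intervals are exact at 95% (Poisson, or Clopper-Pearson on the split of reads or UMIs). Reads and UMIs were counted per library, and for the pooled bulk ratios reads were summed over the libraries of a group. These intervals cover counting error only, and the bulk replicates varied beyond it. Gene models are from GENCODE M21 and promoters from RefSeq.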

Additional observations from a re-analysis of the deposited data

How the results depend on the processing

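The count of genes called, 2906, came to 2317 to 2785 when each library was left out in turn and to 727 with an absolute log2 fold change of at least 1 as well. Over genes that met the read filter in both groups, a restriction chosen after seeing the data, it was 2401, with 17 listed genes. With edgeR it was 3158 and with DESeq2 2188. The count of listed pathway genes called, 21, came to 13 to 21 over the left-out libraries, with 13 without the first plastic library, and to 15 to 23 under the other settings. With the replicate number as a block 2988 genes and 22 listed genes were called. Same-numbered libraries did not deviate together (correlations of -0.0522, 0.0159 and 0.0244). No pairing by number was detected, and the labels do not say whether there was one. The Cyp1a1 log2 difference ran from -5.71 without the second gel library to -7.60 with a pseudocount of 0.1, and under a minimum of 10 reads in every library it has no value. Of 88 alternative values for the 7 genes in bulk, 5 moved beyond the replicate spread, all for Ahrr and Cyp1b1, whose differences depend on the pseudocount (-4.10 and -6.02 at 0.1, -1.36 and -2.07 at 2) or, for Ahrr, on thinning (-3.44), and none changed sign. In single cells the Nqo1 ratio of 2i/LIF to serum/LIF kept within its interval under all 5 alternatives. Of 146 alternative ratios 1 left its interval: Cyp1b1 in JupHigh against JupLow came to -0.54 with 10 CPM added. Intervals came to leave out 0 for Arnt in 2i/LIF against serum/LIF with TMM factors (0.51) and, with barcodes from 500 UMIs, for Arnt (0.33) and Cyp1b1 (-1.51) there, Nqo1 in gel (-1.96) and Tiparp in JupHigh against JupLow (0.27). Shares of cells rise with the thinned depth: at 2000 UMIs Nqo1 was found in 17.6% of cells in 2i/LIF and 5.61% in serum/LIF. The depth of the gel single-cell library, 236195 UMIs, allowed no statement on Cyp1a1, Cyp1b1 or Ahrr there.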

Other observations

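Of 10 further cytochrome P450 genes in the bulk table, 2 passed the read filter. Cyp20a1, an orphan P450, fell from 49.98 ± 5.88 in plastic to 29.1 ± 8.91 in gel (SD, n = 3 each; log2 fold change -0.81, limma adjusted p = 0.00896), and Cyp4f16 had a log2 fold change of 0.09 (adjusted p = 0.863). Among those below the filter, Cyp2b23 stood at 17.0, 12.9 and 9.11 in plastic and 7.90, 0 and 6.87 in gel. Cyp2s1, reported as a receptor target, stood at 4.99, 1.96 and 1.52 in plastic and 0, 1.23 and 8.24 in gel, and the groups overlapped. Another reported target, the aldehyde dehydrogenase gene Aldh3a1, overlapped as well, at 2.49, 2.74 and 1.52 in plastic and 0, 8.59 and 1.37 in gel.

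Cells of the 2i/LIF library with a Cyp1a1 UMI were set beside the rest of that library. Of 27 such cells 10 held an Nqo1 UMI, 37.0% (exact binomial interval 19.4 to 57.6), beside 22.6% (21.1 to 24.1) of the 2862 others. The cells with Cyp1a1 were deeper, with a median of 3141 UMIs against 2445.5, and the shares are not matched for depth. Ahr was found in 2 of the 27 cells, 7.41% (0.910 to 24.3), and in 3.11% (2.50 to 3.81) of the others. For Tiparp the shares were 14.8% (4.19 to 33.7) and 8.74% (7.73 to 9.83), and for Arnt 14.8% (4.19 to 33.7) and 11.5% (10.3 to 12.7). All of these shares were higher in the deeper cells, with overlapping intervals.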
